A study of Mus musculus with 281 samples.

Results

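The cells labelled Ly6C+GMP, a set of granulocyte-monocyte progenitors (GMPs), made up 37.4% of the single cells profiled from mouse bone marrow and were taken by their cell type label alone. They numbered 95 in 1 stretch of sample titles and 10 in another, and were set against the tpMo (31 cells), preNeu (31), proneu (22), Ly6C-GMP (45) and CMP (47) labels. Every cell came from a C57BL/6 mouse, an inbred laboratory strain, and was profiled by SMART-seq2, which copies whole transcripts of 1 cell. The series set out to describe how GMPs differ from each other. By the labels, CMP cells were Lin-Ckit+Sca-1-CD34+CD16/32lo and Ly6C-GMP cells Lin-Ckit+Sca-1-CD34+CD16/32hiLy6C-, while Ly6C+GMP cells shared the second gate but were Ly6C+. PreNeu cells were Lin-Gr1+CD11b+CD115-SiglecF-ckit+CXCR4+ and tpMo cells Lin-CD115+ckit-CXCR4+Ly6C+. The gate written for 21 of the 22 proneu cells was the Ly6C+GMP gate, and 1 proneu cell had none. How cells of that gate came to be labelled proneu or Ly6C+GMP was not stated, so genes of the comparison between those labels may have served to assign them. No treatment, age, sex or animal was given. A deposited sample was a single cell, so a label counted as 1 sample, and differences between labels carry no test. Levels are given as mean ± SD over cells or as the lowest, median and highest cell.

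GMPs arise from CMPs, the common myeloid progenitors, and give rise to neutrophils and monocytes. On the neutrophil path, the primary granule proteins such as myeloperoxidase and the neutrophil serine proteases are made first, and the secondary granule proteins such as lactoferrin are made later. Irf8 is a transcription factor needed for the monocyte path, Gfi1 and Cebpe are factors of the neutrophil path, and Ly6C is a surface protein carried by many monocytes and their progenitors.

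The numbers in the sample titles were cut here into stretches called runs, whose meaning the labels do not give. Titles with a different prefix formed a run of their own. The rest were cut at the lowest and highest numbers of their CMP and Ly6C-GMP cells, 4529 and 4590. Numbers ran on across these cuts without a gap, from 4528 on one side and to 4591 on the other. Run A held 95 Ly6C+GMP cells and no others. Run C held the other 10 Ly6C+GMP cells with 21 proneu, 31 preNeu and 31 tpMo cells, and 2 further runs held the CMP and Ly6C-GMP cells with the remaining proneu cell. Under these cuts no run held Ly6C+GMP together with CMP or Ly6C-GMP cells, so for those comparisons run and label cannot be told apart. Values are TPM, transcript abundance scaled to the same total in each cell, which keep no read depth, and the number of genes at 1 TPM or more served in its place. Its median was 4829 in Ly6C+GMP cells (lowest 3951, highest 5719), 4514 in Ly6C-GMP, 4204 in proneu, 3489 in CMP, 3082 in tpMo and 2373 in preNeu cells. Ly6C+GMP cells also had the most genes at 50 TPM or more, with a median of 3094 against 2902 in Ly6C-GMP and 2353 in CMP cells. A single Ly6C+GMP cell of run A stood apart, with the highest level of the late granule gene Ngp (46094 TPM, the next 148) and of Kit (231) and the lowest of Elane (87.1), Mpo (8393) and Ly6c2 (398 TPM); without it no count moved by over 1.5 times.

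The 6 genes chosen to mark the cells were found in the cells to unequal degrees, with Ly6c2, Mpo, Elane and Fcgr3 in each cell and Irf8 and F13a1 in most. Ly6c2, which encodes a Ly6C protein (chr15:75108158-75111970 on GRCm38), was at 8521 ± 2515 TPM in Ly6C+GMP cells, with a median of 8424 TPM (lowest 398, highest 18053). Proneu cells held 8014 ± 3500.2 TPM, tpMo 9670.0 ± 3292, Ly6C-GMP 2398 ± 2583, preNeu 2572 ± 1772 and CMP cells 746 ± 2139.7 TPM. It reached 1000 TPM in 99.05% of Ly6C+GMP cells (exact 95% interval 94.8 to 99.98, for counting error alone), and its range overlapped those of proneu and tpMo cells. Since Ly6c1 and Ly6c2 are near-identical, the share of reads given to each is uncertain. Fcgr3, 1 of the receptors that the CD16/32 antibody binds (chr1:171051174-171064935), was at 1144 ± 584 TPM, close to the 1450.3 ± 824 of proneu, above the 691 ± 641 of Ly6C-GMP and far above the 91.4 ± 251 TPM of CMP cells.

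Mpo, the myeloperoxidase gene (chr11:87793581-87804413), was at 34287 ± 10619 TPM in Ly6C+GMP cells, with a median of 34369 TPM (lowest 8393, highest 63471). Means were 47923 ± 11301 in proneu, 27279 ± 11691 in Ly6C-GMP, 6682 ± 8793 in CMP, 2033 ± 5625 in tpMo and 152 ± 514 TPM in preNeu cells. Elane, neutrophil elastase (chr10:79886247-79888215), gave the same order among progenitors, with a median of 25488 TPM (lowest 87.1, highest 61284) in Ly6C+GMP and 43018 TPM (lowest 29839.7, highest 57868) in proneu cells. Mpo was under 1000 TPM in 0 of these cells, which allows a share of up to 3.45%, and Elane was under 1000 TPM in 2.

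The monocyte-path markers were unevenly spread inside the label. Irf8 (chr8:120736358-120756694) was detected, at 1 TPM or more, in 82.9% of cells, with a median of 344 TPM (lowest 0, highest 1353). It was at 100 TPM or more in 68 cells (64.8%, interval 54.8 to 73.8). Of run A cells 85 of 95 held it, against 2 of 10 in run C. F13a1, coagulation factor XIII subunit A and a gene of monocytes (chr13:36867178-37050244), had a median of 341 TPM (lowest 0.4, highest 1880.4), again split between 422 TPM in run A and 2.40 in run C. In tpMo cells F13a1 had a median of 1840.1 TPM (lowest 632, highest 3712), above the median Ly6C+GMP cell in each of the 31 cells.

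**Figure D1:**
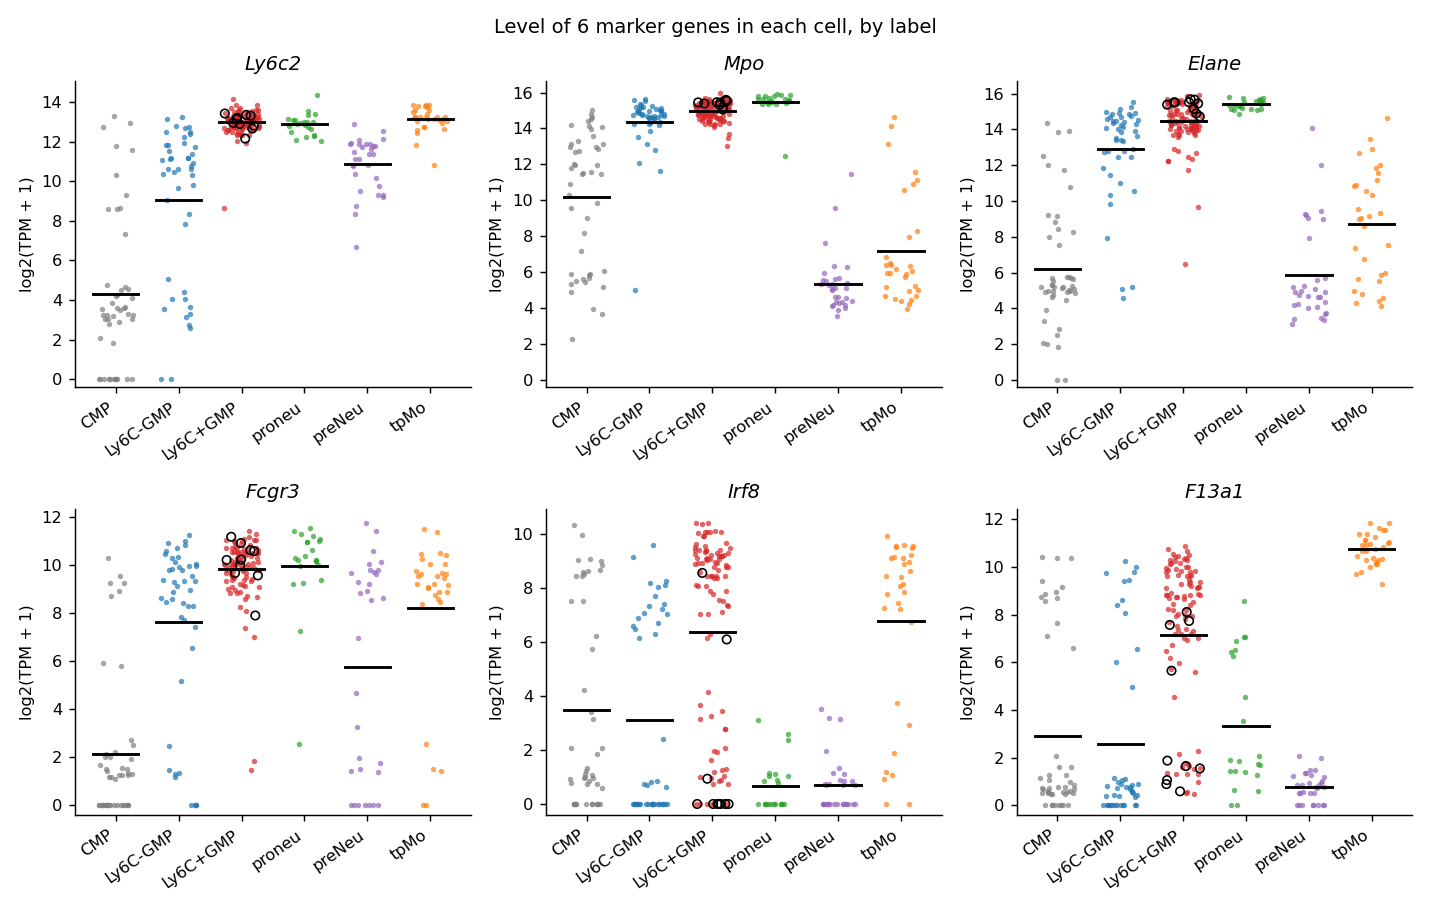
Each point is 1 cell, placed by its label on the horizontal axis and by log2(TPM + 1) of the named gene on the vertical axis; black bars are means over cells, and open circles are the 10 Ly6C+GMP cells of run C. Ly6c2 and Mpo formed tight bands in Ly6C+GMP cells, whereas Irf8 and F13a1 split into cells at 0 to about the detection limit and cells well above it, with most run C cells in the low group.

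Of 11446 genes whose mean reached 5 TPM in any label, 3703 (32.4%) had their highest mean log2(TPM + 1) in Ly6C+GMP cells, more than in any other label. By at least 1 log2 unit over the next label, 273 genes (2.39%) were highest. Only 77 genes (0.673%) were lowest there, and by at least 1 unit 0 genes (0%). The ranking depended on the average used. By mean TPM, 888 genes were highest in Ly6C+GMP cells, whereas CMP cells had 3616 by mean TPM and 1509 by mean log2. For the 273 genes the median ratio of mean TPM to the highest other label was 1.04, and the median share of cells detecting them was 77.1% against 55.6% in the highest other label. These genes were therefore found in more Ly6C+GMP cells at a mean level like that elsewhere, and the cells had the most detected genes of the 6 labels. With a pseudocount of 10 TPM in place of 1, 10 genes were highest by 1 unit.

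To be named here, a gene had to reach a mean of 50 TPM and detection in 50% of Ly6C+GMP cells. Its mean TPM also had to be highest there. Left out of this ranking, and of the genes named by comparison or by spread, were whole gene classes. These were predicted genes, clone names, ribosomal protein genes, pseudogenes and mitochondrially encoded genes. By this naming rule, the 15 genes with the widest margins were Arl8b, Qdpr, Tmco1, Tk1, Pno1, Dnase2a, Mrps10, Aifm1, Chtop, Dscr3, Rad18, Stoml2, Uap1l1, Preb and Ncln. Arl8b, a small GTPase that moves lysosomes along microtubules (chr6:108783099-108825278), led with a margin of 2.28. It was at 132 ± 113 TPM and detected in 88.6% of cells, against 81.04 ± 99.7 TPM and 11 of 22 in proneu and 76.98 ± 115 TPM and 22 of 45 in Ly6C-GMP cells. At 50 TPM or more it was found in 77 Ly6C+GMP cells, 19 Ly6C-GMP and 10 CMP cells. Among cells detecting it, the mean was 149 TPM in Ly6C+GMP and 168 in CMP cells.

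Tk1, thymidine kinase, which salvages thymidine for DNA synthesis, was at 361 ± 282 TPM and in 96.2% of cells. The nearest mean, 339 ± 399 TPM in tpMo, was of much the same size, but 23 of 31 tpMo cells held it. Qdpr, which regenerates the cofactor tetrahydrobiopterin, was at 261 ± 197 TPM in 93.3% of cells, against 247 ± 332 TPM in 27 of 47 CMP cells. Dnase2a, the acid nuclease of lysosomes, was at 65.05 ± 107 TPM in 67 cells, more than 2 times its mean in any other label, of which the next was Ly6C-GMP at 29.7 ± 69 TPM. Pno1, a factor of small ribosomal subunit assembly, was at 111 ± 107 TPM in 83 cells. Mrps10, a mitochondrial ribosomal protein, was at 167 ± 178 TPM in 88. Rad18, a ubiquitin ligase of DNA damage tolerance, was at 88.8 ± 92.6 TPM in 81, but its margin of 1.72 turned to -0.79 among cells of 3000 to 4500 detected genes, and that of Tk1 from 1.95 to -0.44. That window kept only the 19 Ly6C+GMP cells with the fewest detected genes.

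Of the 273 genes, 19 were also at least 1.5 times higher by mean TPM than in every other label, a cut set after the values were seen. They included Arl8b, Dnase2a and Mfn2, which fuses mitochondria, besides the ribosome assembly factors Ftsj3, Bms1 and Tsr2. Mfn2 was at 42.4 TPM in Ly6C+GMP cells, and the next mean was 2.53 times lower. Ftsj3, a methyltransferase of pre-ribosomes, was at 106 TPM against 54.7 in Ly6C-GMP cells. Matn2, an extracellular matrix protein, had the widest ratio, 7.16, but was found in 29 cells at a mean of 17.04 TPM. The genes lowest in Ly6C+GMP cells by the naming rule were Arrdc1, Dynlt1b and Ppp2r5a, with margins of -0.06, -0.04 and -0.01, far under the spread between cells. Arrdc1, an arrestin-domain protein of membrane trafficking, was at 105.4 TPM in run A and 208 TPM in run C. Dynlt1b, a light chain of dynein, was at 111 ± 102.8 TPM, the lowest mean of the 6 labels, of which the next was 142 in proneu cells.

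**Figure D2:**
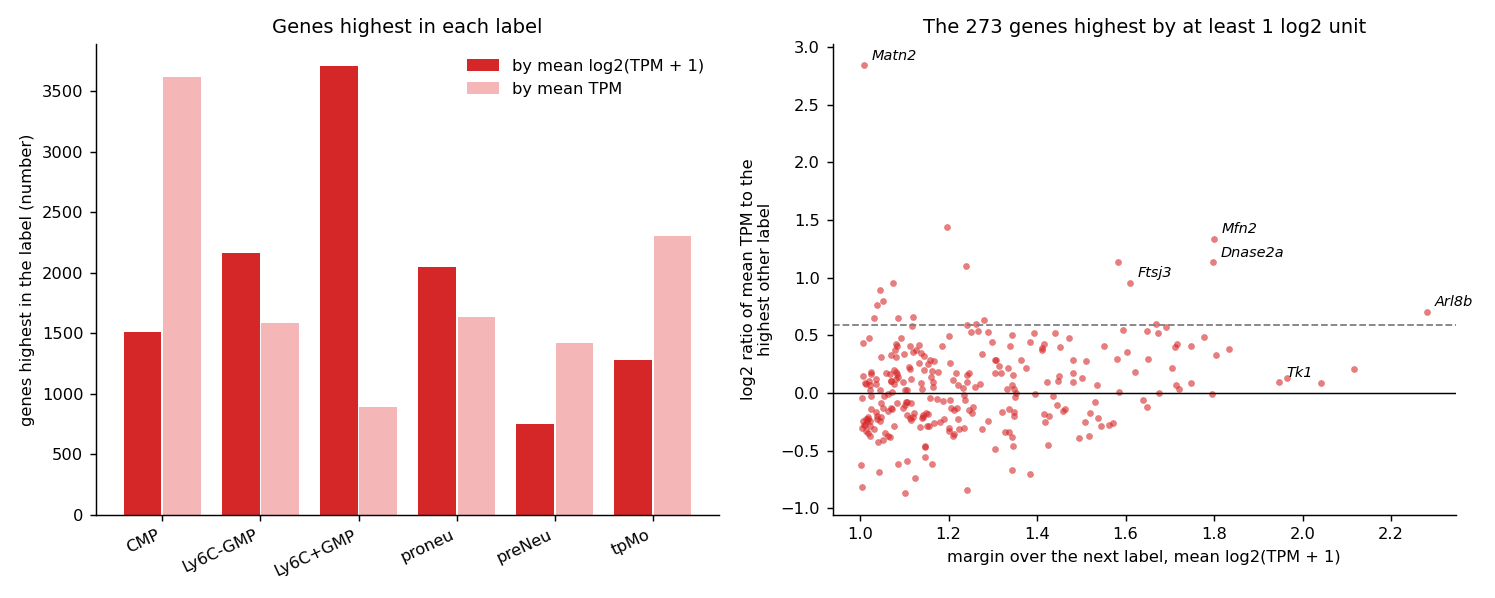
Left, the number of genes with their highest value in each label, by mean log2(TPM + 1) and by mean TPM; right, for the 273 genes highest in Ly6C+GMP cells by at least 1 log2 unit, the margin over the next label against the log2 ratio of mean TPM to the highest other label, with a dashed line at 1.5 times. Ly6C+GMP cells led by mean log2 with 3703 genes but had the fewest, 888, by mean TPM, and 19 genes lay above the dashed line.

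Against CMP cells, Ly6C+GMP cells were higher in granule genes, secretory machinery and several monocyte genes, and lower in stem cell and erythroid or megakaryocyte genes. Of 10145 genes compared, 3124 (30.8%) stood at least 1 log2 unit higher and 219 (2.16%) as much lower. The median gene differed by 0.51. By the log2 ratio of mean TPM the split was 1118 higher and 2259 lower. Primary granule genes were higher by 1 unit for 13 of 13 measured members, of 14 listed, with a median of 4.33. A member counts as measured where its mean reached 5 TPM in a compared label, so one high in a single label enters through it. Elane differed by 8.26, Ms4a3, a membrane protein of GMPs, by 8.27, and Prss57, a serine protease of primary granules, by 5.86. Ms4a3 was at 3013 ± 1697 TPM against 156 ± 476 in CMP cells, and the lowest Ly6C+GMP cell held 6.94 TPM against a CMP median of 3.88.

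Other genes far above CMP were Trem3, an innate receptor of myeloid cells, by 7.12, Hp, the haemoglobin-binding haptoglobin, by 7.06, Anxa3, an annexin of granulocytes, by 6.46, and Rgcc, a regulator of the cell cycle, by 7.39. Hp was at 777 ± 438 TPM in each cell and at 91.8 ± 231 TPM in 21 of 47 CMP cells. Genes of endoplasmic reticulum (ER) folding and secretion were higher for 25 of 27 members, with a median of 2.57, falling to 0.88 by mean TPM. The chaperone Hspa5 was at 1620.4 ± 633 TPM against 554 ± 619 in CMP cells. Glycolysis genes were higher for 10 of 13, with a median of 1.995 (0.72 by mean TPM). Among them Pkm, pyruvate kinase, was at 1828 ± 555 against 807 ± 547 TPM, while Ldha, lactate dehydrogenase, was at 1930.2 ± 786 against 2185 ± 1105 TPM.

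Stem and multipotent progenitor genes were lower for 11 of 20 measured members and higher for 1, with a median of -1.11. Meis1, a homeobox factor of stem cells, was at 9.77 ± 39.7 TPM and in 16.2% of cells, against 203 ± 288 TPM and 32 of 47 CMP cells. Angpt1, a ligand made by early progenitors, was detected in 1 Ly6C+GMP cell and 28 CMP cells. Cd34, which is part of the gate of both, was at 178 ± 190.4 against 708 ± 597 TPM. Erythroid and megakaryocyte genes were lower for 8 of 14, with a median of -1.31; Car2, carbonic anhydrase 2, was at 9.98 ± 33.4 against 619 ± 825 TPM. Gata2, a factor of mast cells and early progenitors, was detected in 3 Ly6C+GMP cells and 25 CMP cells. The basophil and mast cell list as a whole had 2 of 6 lower and 1 higher, with a median of -0.51.

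Both cell cycle lists were higher than in CMP cells by mean log2. The mitosis difference was not seen in a window of 3000 to 4500 detected genes, but that window cannot decide it. It took the Ly6C+GMP cells with the fewest genes (label median 4829), but not the CMP cells with the fewest (label median 3489). Between Ly6C+GMP cells the mitosis mean went with the number of detected genes (r of 0.64), so the window also selects on mitosis genes. DNA replication genes were higher for 21 of 26, with a median of 1.79, and mitosis genes for 21 of 26, with a median of 1.95. Among cells of 3000 to 4500 detected genes (19 Ly6C+GMP and 25 CMP cells, with medians of 4340 and 3890 genes) the mitosis median was -0.22 and the DNA replication median 0.72. By mean TPM these medians were 0.28 and 0.18. Cdk1, the kinase that drives mitosis, showed the pattern. Its mean was 546 ± 412 TPM with detection in 98.1% of cells, against 394 ± 583 TPM and 25 of 47 in CMP. Ribosome biogenesis genes differed by a median of 0.82, with 6 of 22 higher and 1 lower. Mitochondrially encoded genes differed by 0.03, with 0 of 13 past 1 unit. MHC class I presentation genes had a median of -0.58, with 3 of 8 lower, such as H2-K1 at 976 ± 429 against 2236 ± 1366 TPM.

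The gate of Ly6C-GMP cells differed from that of Ly6C+GMP cells in Ly6C alone. Against Ly6C-GMP cells, Ly6C+GMP cells were higher in 9 of 18 monocyte genes and in Ighm. Lower were 3 of 6 basophil and mast cell genes and 5 of 17 stem and progenitor genes. The median of 9615 genes differed by 0.22, and 1224 (12.7%) stood higher and 168 (1.75%) lower; by mean TPM the split was 827 higher and 944 lower. Ly6c2 itself was higher by 3.95, as the gate requires, and 43 of 45 Ly6C-GMP cells still detected it, with a median of 1592 TPM (lowest 0, highest 9674). Primary granule genes were higher for 6 of 13 and lower for 1, with a median of 0.92; with the Ly6C+GMP cells of run C alone, 11 of 13 were higher, with a median of 1.42. Elane differed by 1.55, Mpo by 0.60 and Ctsg, cathepsin G, by 0.45, whereas Cd63, a granule membrane tetraspanin, was lower by 1.22, at 664 ± 825 against 1116 ± 1057 TPM.

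Monocyte genes were higher than in Ly6C-GMP cells for 9 of 18 measured members and lower for 1, with a median of 1.14. F13a1 differed by 4.598, Ly86, a partner of the Toll-like receptor homologue RP105, by 3.45, and Irf8 by 3.24. In Ly6C-GMP cells Irf8 was found in 19 of 45. The list's difference was not seen in the 10 cells of run C. With these alone, the list's median was -0.36 against Ly6C-GMP and -0.35 against CMP cells, with 1 of 17 and 1 of 15 members higher. Against CMP with all cells, 13 of 18 members were higher, with a median of 1.63.

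Ighm, the heavy chain of immunoglobulin M, was at 634 ± 441 TPM in 96.2% of cells against 155 ± 291 TPM in 25 of 45 Ly6C-GMP cells, a difference of 4.91. Its mean was 683 ± 432 TPM in run A but 172 ± 192 in run C, near that of Ly6C-GMP cells. Clec5a, a myeloid lectin receptor, differed by 4.26, and Cybb and Ncf4, 2 subunits of the phagocyte NADPH oxidase, by 3.93 and 4.18. Ncf4 averaged 296 ± 235 TPM with detection in 98.1% of cells, against 78.4 ± 136 TPM and 25 of 45 in Ly6C-GMP. Lower genes included Cpa3, a mast cell carboxypeptidase, at 7.53 ± 54.99 against 686 ± 1402 TPM, and Gpr56, an adhesion receptor of early progenitors, at 15.2 ± 35.8 against 99.1 ± 114 TPM. Cpa3 was in 27 Ly6C+GMP cells and reached 100 TPM in 2 of them. Cd34 was lower by 2.58, at 178 ± 190.4 against 446 ± 339 TPM, although both gates asked for the protein. Mitosis genes were higher for 20 of 26 members, with a median of 1.32. It was 0.69 among cells of 3000 to 4500 detected genes, a window with the limit given above. DNA replication had a median of 0.87, ER folding of 0.46, glycolysis of 0.58 and ribosome biogenesis of 0.06.

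The secondary and late granule genes were higher than in CMP and Ly6C-GMP cells, with the defining members at low levels. Against CMP cells 15 of 19 measured members were higher, with a median of 2.61, and against Ly6C-GMP cells 13 of 21, with a median of 1.63. Ngp, the neutrophilic granule protein, had a median of 33.4 TPM (lowest 2.06, highest 46094) and was detected in each Ly6C+GMP cell, against 10 of 47 CMP and 16 of 45 Ly6C-GMP cells. In tpMo cells, which are monocyte-path cells, Ngp had a median of 89.6 TPM (lowest 10.7, highest 214) and was detected in all 31, and in preNeu cells the median was 144678 TPM (lowest 66794, highest 207913). Camp, the cathelicidin, and Ltf, lactoferrin, followed the same order, with medians of 13.7 and 4.41 TPM in Ly6C+GMP, 26.8 and 11 in tpMo, and 0 and 0 TPM in Ly6C-GMP cells. The level in Ly6C+GMP cells thus lay at or under that in tpMo cells, in runs that held none of the CMP or Ly6C-GMP cells; its source was not tested. By mean TPM the list's median against Ly6C-GMP cells was -0.69.

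Against proneu cells, Ly6C+GMP cells were higher in monocyte-path genes and lower in some granule and neutrophil-path genes over all cells, but in the shared run the monocyte difference was smaller and that of primary granule genes and neutrophil regulators was not seen. The median of 9514 genes differed by 0.36, and 1917 (20.1%) stood higher and 264 (2.77%) lower; by mean TPM the split was 1629 and 955. Within run C, with 10 Ly6C+GMP and 21 proneu cells, 2331 (25.1%) were higher and 604 (6.49%) lower of 9302. Irf8 was higher by 5.67, and in proneu cells it had a median of 0 TPM (lowest 0, highest 7.64). Ly86 was higher by 4.45, Ctsc, the protease that activates granule serine proteases, by 4.38, and Ms4a6c, a membrane protein of monocytes, by 4.13. Ass1, argininosuccinate synthase, was higher by 4.54, at 216 ± 229.6 against 36.3 ± 86.2 TPM. The monocyte list was higher for 12 of 18, with a median of 2.32.

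The differences of the monocyte list and of the genes just named from proneu cells were much smaller inside run C. Of these genes, Ctsc belongs to the primary granule list. The monocyte list's median inside run C was 0.86, with 4 of 13 higher. Over all genes inside run C the median was 0.35, with 25.1% higher. Irf8 differed by 0.90, Ctsc by 1.15, Ms4a6c by 0.93 and Ass1 by 2.45, while Ly86 kept a difference of 1.75. Lower than in proneu cells was S100a8, a calcium-binding protein of neutrophils, with a median of 68.8 TPM (lowest 0, highest 19117) against 2298 TPM (lowest 124, highest 15124). Fcnb, ficolin B, was in 81.9% of cells with a median of 6.46 TPM, against 21 of 22 and 860.2 TPM. Cd63 was lower by 3.73 over all cells and had a run C difference of -0.69; S100a8 and Fcnb had run C differences of -2.21 and -1.97. Primary granule genes were lower for 5 of 13 and higher for 2, with a median of -0.93, and within run C the median was 0.00. Elane was at 43959 ± 8062 TPM in proneu cells, and its run C difference was -0.07.

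Secondary and late granule genes were lower than in proneu cells for 6 of 17 and higher for 2, with a median of -0.34, and for 6 and 0 of 17 within run C, with -0.58. Neutrophil regulators were lower for 4 of 10 and higher for 2, with a median of -0.69, but within run C 0 of 11 were lower and 1 higher, with a median of 0.30. Gfi1 was in 25 Ly6C+GMP and 12 of 22 proneu cells, at 16.97 ± 42.2 and 66.8 ± 81.1 TPM. Cebpe was in 60 and 19, at 61.5 ± 91.8 and 73.8 ± 67.1 TPM. In CMP cells Gfi1 was in 0 of 47, which allows a share of up to 7.55%, and Cebpe in 1. The mitosis list had a median of 1.01 against proneu, and -0.12 among cells of 3000 to 4500 detected genes, a window with the limit given above. MHC class I genes had a median of 0.86, with 4 of 8 higher, and within run C of 0.13, with 3 higher; the immunoproteasome subunit Psmb8 was at 767 ± 389 against 383 ± 269 TPM.

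Against preNeu cells, which follow on the neutrophil path, primary granule genes were higher and secondary granule genes lower in Ly6C+GMP cells. The median of 9478 genes differed by 1.26, 5455 (57.6%) stood higher and 292 (3.08%) lower, and within run C 5339 (59%) and 358 (3.96%) of 9042; by mean TPM the split was 4572 and 1291. The 20 most abundant genes took a median of 47.1% of all transcripts in a preNeu cell and 17.9% in a Ly6C+GMP cell, and TPM sets every other gene against that total. Primary granule genes were higher for 11 of 13, with a median of 6.57, such as Ctsg by 10.55, Srgn, the granule proteoglycan serglycin, by 9.82 and Mpo by 9.62. Ctsg ranged from 822 to 11988 TPM in Ly6C+GMP and from 0 to 15.2 in preNeu cells, with no overlap. Secondary and late granule genes were lower for 19 of 23 and higher for 0, with a median of -6.11. S100a9, the partner of S100a8, had a median of 8 TPM (lowest 0, highest 7837) against 22263 TPM (lowest 14893, highest 41993), without overlap. Lcn2, the iron-siderophore binder lipocalin 2, had a median of 3.03 against 7974 TPM (lowest 2311, highest 17136).

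Ribosome and ER genes stood higher than in preNeu cells, and mitosis genes were split. Ribosome biogenesis genes were higher for 22 of 22, with a median of 4.54, and ER folding genes for 27 of 27, with 4.95. Npm1, nucleophosmin, was at 2390.4 ± 771 against 115 ± 181 TPM, and Calr, the ER chaperone calreticulin, at 701 ± 338 against 28.6 ± 135. DNA replication genes were higher for 25 of 26, with 3.81, but mitosis genes were higher for 8 and lower for 5, with 0.23. Cdk4, a kinase of early G1, was at 1042 ± 440.4 against 22.8 ± 61.5 TPM, while Cdk1 was at 772 ± 751 TPM in preNeu cells. Phgdh, the first enzyme of serine synthesis, was at 817 ± 402 against 15.3 ± 79.4 TPM. Mitochondrially encoded genes were higher for 10 of 13, with 2.76, and MHC class I genes for 7 of 8, with 2.95.

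Against tpMo cells, Ly6C+GMP cells were higher in primary granule genes and lower in most monocyte genes. The median of 9672 genes differed by 0.76, and 3967 (41%) stood higher and 385 (3.98%) lower; by mean TPM 2405 were higher and 1623 lower, and within run C 4076 (43%) and 654 (6.89%) of 9487. Ms4a3 was higher by 7.98, Nkg7, a granule protein, by 7.97 and Mpo by 7.83. Primary granule genes were higher for 12 of 13, with a median of 6.47; the 1 lower member was Ctsc, at 178 ± 175 against 843 ± 474 TPM. The monocyte list was lower for 17 of 24 and higher for 0, with a median of -3.29, or -4.94 within run C.

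The monocyte genes differed from tpMo cells to very unequal degrees. Irf8 differed by -0.41, at 368 ± 361 in Ly6C+GMP and 339 ± 289 TPM in tpMo cells. Emb, the membrane protein embigin, was at 641 ± 449.6 against 1016 ± 648 TPM. Ly86 and Csf1r, the receptor for macrophage colony-stimulating factor, were at 301 ± 332 and 76.8 ± 115 TPM against 612 ± 492 and 169.7 ± 176. Lgals3, the lectin galectin 3, was in 45 Ly6C+GMP cells with a median of 0 TPM (lowest 0, highest 704) against 3017 TPM (lowest 148, highest 8676). Fn1, fibronectin, was in 6 Ly6C+GMP and 28 of 31 cells, and S100a4, a calcium-binding protein of motile cells, in 7 and 23. Lyz2, lysozyme, was in each cell with a median of 583 TPM (lowest 14.6, highest 17127) against 53623 TPM (lowest 6126, highest 108528). Ccr2, the receptor that draws monocytes out of bone marrow, was in 54 Ly6C+GMP cells with a median of 1.07 TPM, against 30 tpMo cells and 544 TPM. Ribosome biogenesis genes were higher for 22 of 22, with 2.99, ER folding genes for 26 of 27, with 2.39, and DNA replication for 15 of 26, with 1.11 (-0.22 by mean TPM).

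**Figure D3:**
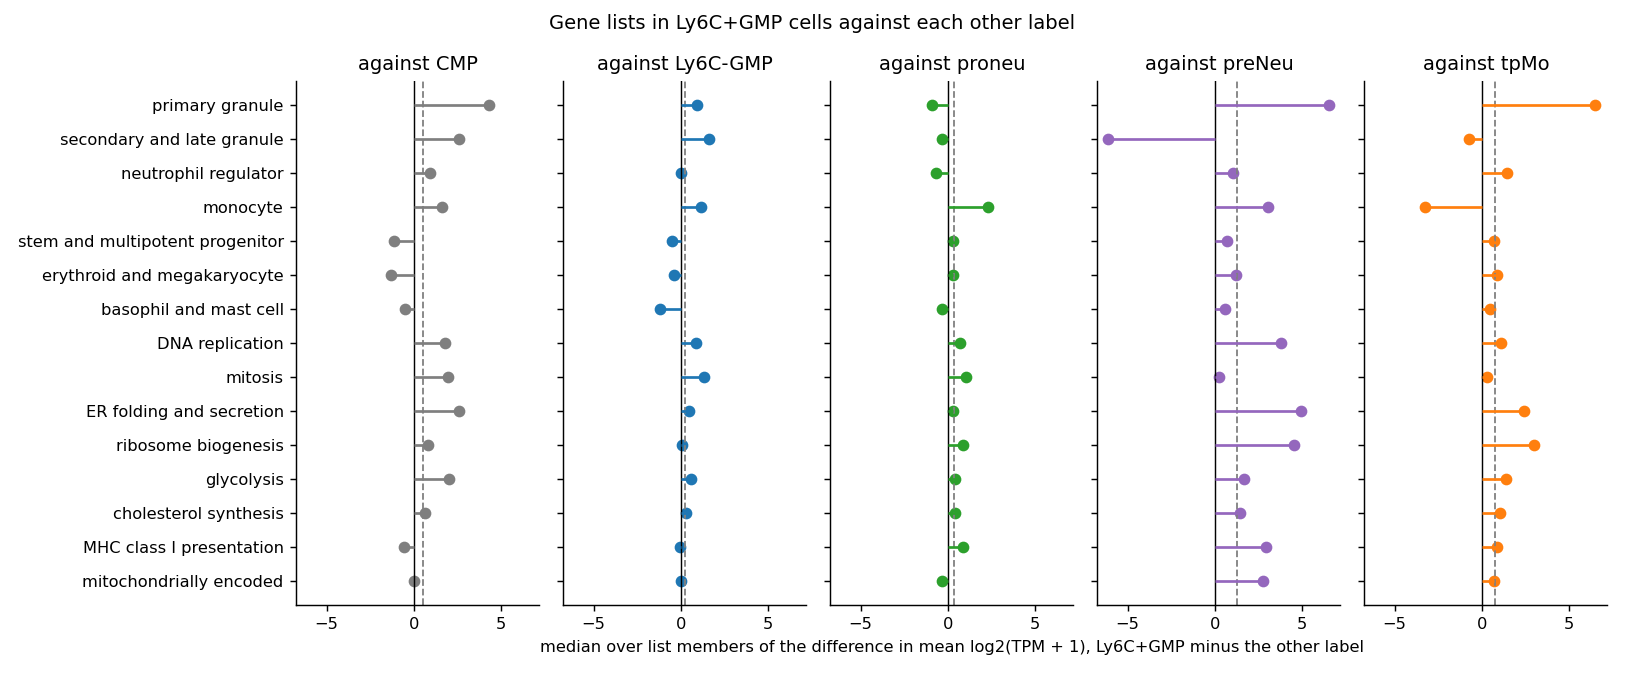
For 15 gene lists, the median over measured members of the difference in mean log2(TPM + 1), Ly6C+GMP minus the label named above each panel; the dashed line is the median over all genes compared. All 5 panels share the same Ly6C+GMP cells. Primary granule genes stood right of zero except against proneu cells (-0.93), secondary and late granule genes far left against preNeu cells (-6.11), and monocyte genes left against tpMo cells alone (-3.29).

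Among the lists, members with their highest mean log2 in Ly6C+GMP cells numbered 18 of 27 for ER folding, 17 of 26 for DNA replication, 13 of 26 for mitosis, 11 of 22 for ribosome biogenesis and 9 of 13 for glycolysis, beside 32.4% of all genes. For primary granule genes the number was 0 of 13 and for monocyte genes 0 of 24. By the median over cells of summed TPM, only glycolysis of these lists was highest in Ly6C+GMP cells, at 14394 against 13052 in proneu. ER folding was higher in proneu (15160 against 14274) and DNA replication in tpMo cells (8206 against 6618). Mitosis was higher in preNeu (6451 against 3264) and ribosome biogenesis in CMP cells (7051 against 5900). In per-cell means, primary granule genes had a median of 10.31 in Ly6C+GMP, 10.60 in proneu and 9.84 in Ly6C-GMP cells on the log2 scale. Monocyte genes had 3.10 in Ly6C+GMP, 1.35 in proneu and 6.68 in tpMo cells.

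Within the label, 451 genes were detected in every cell and 1264 in at least 90% of cells. The SD of log2(TPM + 1) between cells had a median of 2.53 over 8836 genes, against 2.78 in CMP, 2.64 in Ly6C-GMP, 2.58 in proneu, 2.51 in tpMo and 2.12 in preNeu cells. Of genes averaging 50 TPM or more, without the classes left out above, Irf8 and F13a1 were among the 15 most spread for their mean. Their SDs were 3.72 and 3.27 where genes of like mean had 2.56 and 1.99. The granule membrane genes Cd63 (3.70 against 2.20) and Nkg7 (1.86 against 0.58) were among those 15 too. Cell cycle genes were spread too: the histone gene Hist1h2ap had an SD of 3.61 against 1.94, and Tubb4b, a tubulin of the spindle, 2.67 against 1.14. Hist1h2ap has near-identical copies, so its level is uncertain. Elane, at 1.27 against 0.53, varied more than Mpo, at 0.51 against 0.53.

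The least spread for their mean included Tomm6 and Cox7a2, small proteins of mitochondria, with SDs of 0.92 and 0.71 where genes of like mean had 2.86 and 2.53. Ltf and Ngp stood there too, at 1.202 and 1.32 against 2.92 for each, as a low level was found in nearly every cell. A single cell lifted their means: Ngp was at 477 ± 4495 TPM with it and 38.5 TPM without it, and Ltf at 57.2 and 4.87 TPM.

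**Figure D4:**
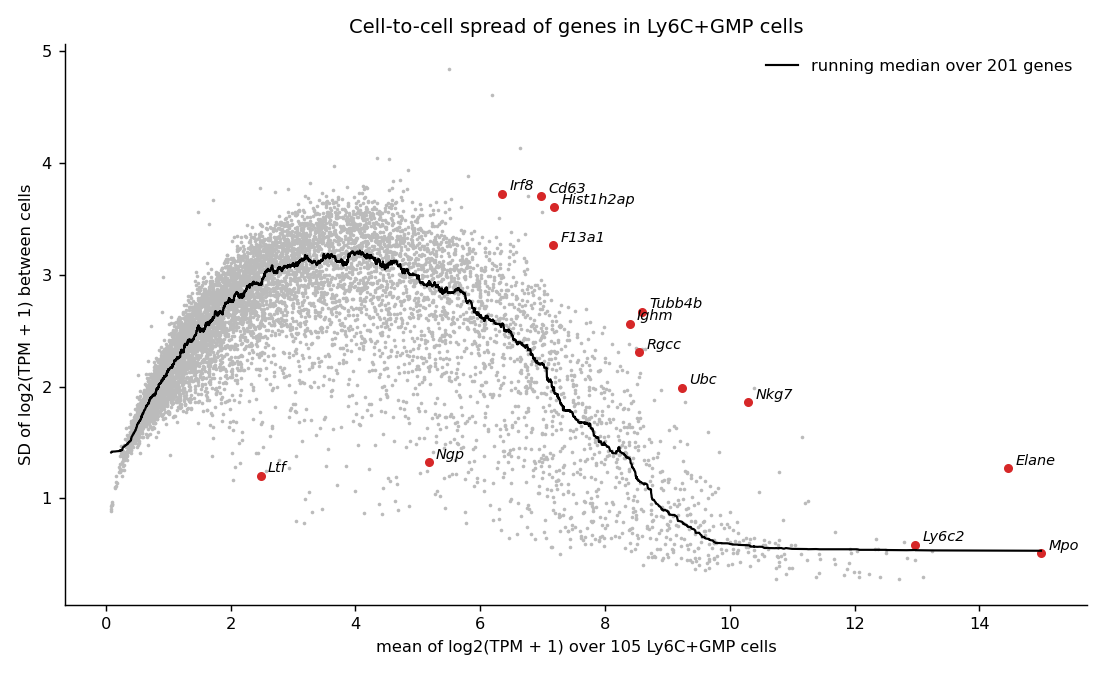
Each grey point is a gene, by its mean and its SD of log2(TPM + 1) over the Ly6C+GMP cells; the line is the running median of the SD over genes ordered by mean, and named genes are in red. Irf8, F13a1 and Cd63 lay well above the line, Mpo and Ly6c2 near it, and Ngp and Ltf well under it.

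Primary granule and monocyte genes varied in opposite directions between Ly6C+GMP cells. Over the 95 and 10 cells of both runs the per-cell means of the 13 primary granule and 24 monocyte genes had a Pearson r of -0.68 and a Spearman rho of -0.73, and -0.67 and -0.72 over the 95 cells of run A. Cells of 1 label share their run and a fixed TPM total, so these are descriptions. The monocyte mean ranged from 0.69 to 5.76 with a median of 3.10 and an SD of 1.32. The primary granule mean ranged from 6.71 to 11.59 with a median of 10.31 and an SD of 0.99. Spread on this scale changes with the level, so these values cannot tell in which list cells differed more. Neither the monocyte nor the primary granule mean went strongly with the number of genes detected (r of 0.01 and 0.15). Irf8 and Elane had an r of -0.50 and a rho of -0.71, and Irf8 and Ly86 0.79 and 0.67. Irf8 and F13a1 had 0.71 and 0.75, and Elane and Mpo 0.78 and 0.76.

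Irf8 and the neutrophil factor Cebpe overlapped in part. Of these cells 42 held both, 45 held Irf8 alone, 18 held Cebpe alone and 0 held neither, with an r of -0.65. Most cells with Irf8 still made primary granule transcripts in quantity. Irf8 at 100 TPM and Elane at 1000 TPM or more were found together in 66 cells (62.9%, interval 52.9 to 72.1), and 18 cells had Elane at that level with Irf8 under 1 TPM, 10 of them in run A and 8 in run C. Irf8 at 100 TPM with Elane under 1000 TPM was found in 2 cells.

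**Figure D5:**
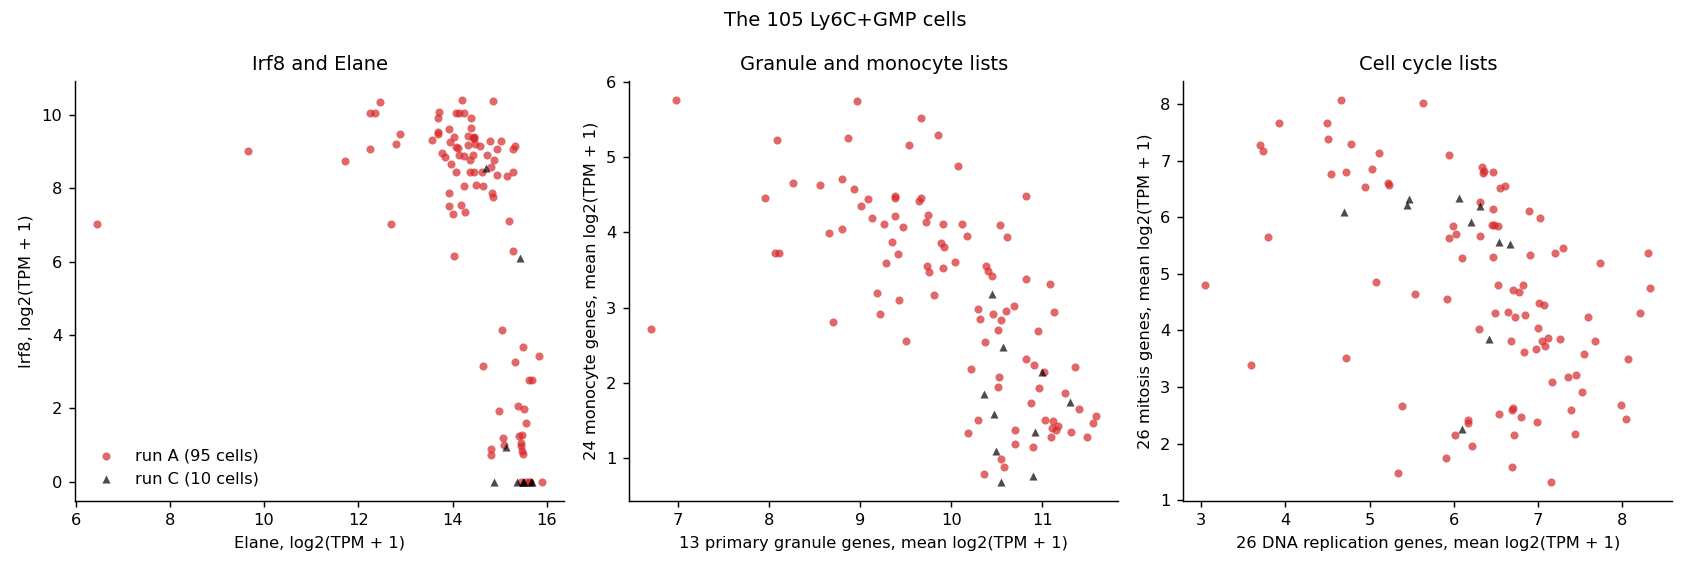
Each point is 1 Ly6C+GMP cell (circles, 95 cells of run A; triangles, 10 cells of run C), by Elane and Irf8 level, by the mean log2(TPM + 1) of primary granule and monocyte genes, and by that of DNA replication and mitosis genes. In each panel high values on one axis went with low values on the other, and most run C cells lay among those with high Elane and little Irf8.

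A motif known to be bound by PU.1, a factor of myeloid cells, was looked for in the promoters of the primary granule genes. Its letters GAGGAA were sought on both strands (TTCCTC on the other) in the 250 bases before each gene's start in RefSeq. They stood in 7 of the 11 primary granule promoters found there (63.6%), and in 23.1% of all 27025 promoters of that length. The share was 5 of 21 (23.8%) for monocyte promoters, 6 of 22 for mitosis and 4 of 22 for DNA replication promoters. TTGCNNAA, a C/EBP-type motif, stood in 0 of the 11 and in 9.55% of all. The promoters of Elane and Prtn3, proteinase 3, are shown because these neighbours on chromosome 10 were among the genes that set Ly6C+GMP cells apart from CMP cells, and varied together between cells (r of 0.71 for the pair). They lie at chr10:79886062-79886246 and chr10:79879417-79879613 on the plus strand of GRCm38.p6, with the motif in capitals; a match is a description of the letters and not a bound site.
Elane: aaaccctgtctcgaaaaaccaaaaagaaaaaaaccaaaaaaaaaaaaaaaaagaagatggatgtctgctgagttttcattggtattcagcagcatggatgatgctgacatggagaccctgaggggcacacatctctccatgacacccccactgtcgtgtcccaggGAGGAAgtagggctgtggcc
Prtn3: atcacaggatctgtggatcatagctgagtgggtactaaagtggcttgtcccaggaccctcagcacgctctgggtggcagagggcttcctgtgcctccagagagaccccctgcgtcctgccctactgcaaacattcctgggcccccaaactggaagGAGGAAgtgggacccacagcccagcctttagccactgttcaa

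DNA replication and mitosis genes also varied in opposite directions between cells. Their per-cell means had an r of -0.45 and a rho of -0.49 over the same cells. The mitosis mean ranged from 1.33 to 8.07 with a median of 4.80, and went with the number of detected genes (r of 0.64, rho of 0.64), whereas the DNA replication mean did not (r of -0.07, rho of -0.10). Ccnb1, cyclin B1, was in 87.6% of cells with a median of 219.7 TPM (lowest 0, highest 1968), and Mcm5, a subunit of the replicative helicase, in 98.1% with 303 TPM (lowest 0, highest 1197). Ccnb1 and Cdc20, an activator of the anaphase-promoting complex, had an r of 0.59, and Ccnb1 and Mcm5 of -0.40. Cdc20 had a median of 163 TPM (lowest 0, highest 1455) in 88.6% of cells, and Ccnb2, cyclin B2, of 146 TPM (lowest 0, highest 1257) in 82.9%.

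The promoters of mitosis genes are known for the CCAAT box and the element TTTGAA, called CHR. Sought on both strands (ATTGG and TTCAAA on the other) in the 250 bases before the start, CCAAT stood in 19 of the 22 mitosis promoters found (86.4%) against 34.5% of all 27025, and TTTGAA in 8 (36.4%) against 16.3%. In DNA replication promoters CCAAT stood in 14 of 22 (63.6%) and TTTGAA in 3. Both stood in 8 of 22 mitosis and 2 of 22 DNA replication promoters, against 5.73% of all. Those of Cdk1, Cdc20 and Ccnb2 are shown since they hold both and the genes belong to the list that split Ly6C+GMP cells by cell cycle. They lie at chr10:69352939-69353162, chr4:118437353-118437593 and chr9:70421555-70421804 on the minus strand of GRCm38.p6 (RefSeq), printed 5′ to 3′ along the gene with both motifs in capitals in either orientation.
Cdk1: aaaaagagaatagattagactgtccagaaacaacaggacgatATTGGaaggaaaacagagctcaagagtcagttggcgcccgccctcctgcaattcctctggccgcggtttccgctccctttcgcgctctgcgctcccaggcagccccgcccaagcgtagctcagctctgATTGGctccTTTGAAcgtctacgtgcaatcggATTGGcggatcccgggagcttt
Cdc20: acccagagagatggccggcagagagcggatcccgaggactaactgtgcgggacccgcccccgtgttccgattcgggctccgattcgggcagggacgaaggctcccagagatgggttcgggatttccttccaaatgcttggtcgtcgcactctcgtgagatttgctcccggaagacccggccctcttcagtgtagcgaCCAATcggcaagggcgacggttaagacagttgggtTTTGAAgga
Ccnb2: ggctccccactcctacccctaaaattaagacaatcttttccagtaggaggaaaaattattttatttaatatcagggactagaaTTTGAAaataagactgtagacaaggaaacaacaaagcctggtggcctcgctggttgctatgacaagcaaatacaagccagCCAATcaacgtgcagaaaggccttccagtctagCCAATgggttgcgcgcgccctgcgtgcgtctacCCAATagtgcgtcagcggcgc

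The 2 runs inside the label differed in monocyte-path and neutrophil-path genes, among many others. Of 9386 genes, 1107 (11.8%) were higher by 1 log2 unit in the 95 cells of run A and 1051 (11.2%) in the 10 of run C. Higher in run A were Irf8 by 5.30, Cd34 by 3.90, F13a1 by 3.87, Ctsc by 3.48 and Ms4a6c by 3.44. Cd34 was at 192 ± 192 TPM in run A and 38.4 ± 96.6 in run C, near the 22.2 TPM of proneu cells. C1galt1c1, a chaperone of glycosylation (3.90), and Commd4 (3.90) stood as far apart. The widest genes on the run C side were Spsb3 (-3.85) and Kat8, a histone acetyltransferase (-3.83), neither of them in a list; these 4 were named after their values were seen. Lower in run A were also Cd63 by 3.35 and Per3, a circadian clock gene, at 34.5 against 106 TPM. Gfi1 was in 19 of 95 and 6 of 10 cells. The monocyte mean had a median of 3.38 in run A and 1.67 in run C, and the genes detected were alike, with medians of 4829 and 4918. What the runs stand for was not given, and 10 cells are few.

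Most markers picked for other lineages were low or not detected, apart from Ighm, but some members of the wider lists were widely found. The summed level of 7 erythroid and megakaryocyte markers had a median of 0.64 TPM and reached 100 TPM in 5 cells, with a highest of 209. That of 5 basophil and mast cell markers had a median of 0.49 TPM and reached 100 TPM in 11 cells, with a highest of 592. Of 4 dendritic cell markers 3 were not detected in any cell, and their sum stayed under 89 TPM. The wider erythroid and megakaryocyte, basophil and mast cell, and dendritic cell lists had median sums of 320, 235 and 132 TPM. In CMP cells these were 1654, 182 and 264 TPM. Nfe2, of the erythroid and megakaryocyte list, was in 91 of 95 run A cells at a mean of 271 TPM. Hdc, of the basophil and mast cell list, was in 82 of them at 262 TPM. Of 6 lymphoid markers 5 were not detected, the exception being Ighm with a median of 565 TPM. In tpMo cells 5 of the 6 were not detected either, and the sum of the 6 had a higher median, 897 TPM. Cd79b, a B cell receptor subunit of the wider lymphoid list, was in 53 of 95 run A and 2 of 10 run C cells, at means of 97.95 and 49.2 TPM, against 17 of 47 CMP cells at 142 TPM. The per-cell mean of the 4 measured lymphoid genes had a median of 2.71 on the log2 scale in Ly6C+GMP cells, 2.45 in tpMo and 2.06 in CMP cells, with overlapping ranges. Of 3 eosinophil markers 2 were not detected, and their sum reached 58.6 TPM. Ly6a, which encodes Sca-1, had a median of 9.28 TPM (lowest 0, highest 94.6) in a gate that excluded the protein, against 0 in CMP and 74.5 TPM in tpMo cells. Doublets were not called.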

How the data were processed

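The table held 281 SMART-seq2 cells of mouse bone marrow, 105 of them labelled Ly6C+GMP. Per the submitters' processing notes, the authors used RSEM 1.2.19 and GRCm38, and deposited TPM values for 43280 gene symbols, 25450 of them at 0 throughout. Aligner, annotation and cell filters: not given in the sources used here. As a scaled unit, TPM keeps no depth, and no molecular identifiers were used. No 2 columns were identical and 0 columns belonged to other samples.

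Groups followed the label for cell type. The main value was the difference of mean log2(TPM + 1) over cells, counted from 1 log2 unit, for genes whose mean reached 5 TPM in a compared label; detection meant 1 TPM. Intervals are exact (Clopper-Pearson, 95%) and cover counting error alone. Named genes were up to 15 with the widest margin each way over the 6 labels, and 10 per comparison and direction. Added to these were 15 by spread, up to 4 per list, and the marker genes. Genes of the 6-label ranking and the comparisons needed a mean of at least 50 TPM and detection in 50% of cells. Both limits held for the higher label, or for the next lowest label where Ly6C+GMP was lowest. Mean TPM had to differ in the same direction. Genes highest of 6 also kept their place without the highest cell. Spread genes needed that mean but had no detection limit. Predicted genes, clone names, ribosomal protein genes, pseudogenes and mitochondrially encoded genes were left out of the named ranking, comparison and spread genes. Cells, 21 gene lists and alternatives were chosen with earlier results of these data known. The alternatives tried were mean TPM, pseudocounts of 0.1 and 10 TPM, all genes unfiltered, median-ratio scaling, runs apart, matched gene numbers, leaving out the outlying cell and, added later, the 1487 most abundant genes of a cell. Scripts (python 3.11.15, numpy 2.4.6, pandas 2.3.3, scipy 1.17.1, matplotlib 3.10.9) were tested on simulated data. Gene positions are from GENCODE on GRCm38, and promoters from RefSeq (GRCm38.p6), printed up to the first annotated exon.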

Additional observations from a re-analysis of the deposited data

How the results depend on the processing

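The counts rested on detection, and depth is unknown for TPM. With a pseudocount of 10 TPM, 10 genes were highest by 1 unit (273 as reported), and genes higher and lower numbered 1053 and 99 against CMP, 242 and 29 against Ly6C-GMP, 441 and 66 against proneu, 3029 and 189 against preNeu, and 1574 and 223 against tpMo cells. With 0.1 TPM, 883 were highest and 344 lowest, with 4733 and 374 against CMP, 2475 and 417 against Ly6C-GMP, and 3412 and 553 against proneu. With no filter 124 were lowest, and the eosinophil list against proneu was 0.020.

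By mean TPM, 37 were highest by 1 unit and 326 lowest, with 1118 and 2259 against CMP, 827 and 944 against Ly6C-GMP, 1629 and 955 against proneu, 4572 and 1291 against preNeu, and 2405 and 1623 against tpMo. Secondary granule genes against Ly6C-GMP turned to -0.69, neutrophil regulators against preNeu to -0.27 and DNA replication against tpMo to -0.22. Median-ratio scaling gave 149 lowest, 107 lower than Ly6C-GMP, 692 lower than preNeu, and -0.22 for erythroid genes against preNeu.

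With the run C cells alone, 954 were highest and 742 lowest, 558 lower than CMP, 1974 and 787 against Ly6C-GMP, 592 lower than proneu and 654 lower than tpMo; the monocyte list was -0.35 against CMP and -0.36 against Ly6C-GMP. Within run C for both labels, 604 were lower than proneu and 654 than tpMo. Among cells of 3000 to 4500 genes, without preNeu, 1042 were lowest, with 1918 and 922 against CMP, and 792, 981 and 908 lower than Ly6C-GMP, proneu and tpMo. Mitosis was -0.22 against CMP and -0.12 against proneu, and the margins of Tk1 and Rad18 were -0.44 and -0.79.

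Keeping the 1487 most abundant genes of each cell, chosen after seeing the data, gave 56 highest and 691 lowest, with 887 and 638 against CMP, 490 and 396 against Ly6C-GMP, 630 and 517 against proneu, 1582 and 1172 against preNeu, and 1022 and 932 against tpMo. Reversed were secondary granule against Ly6C-GMP (-0.11), neutrophil regulators (-0.85), immediate early (-0.27) and gate genes (-0.13) against preNeu, dendritic (-0.24) and cholesterol genes (-0.15) against tpMo, and the margins of Rad18 (-0.057) and Uap1l1 (-0.45). In all, 139 values of single genes under these settings kept direction and side of 1 unit, 34 fell under it, 3 passed it and 4 turned; of list medians 914 kept both, 56 passed 1 unit, 15 turned and the rest fell under it or moved otherwise. Leaving out the cell with the most Ngp, also chosen after seeing the data, moved no count by over 1.5 times. At a detection limit of 5 TPM, 990 genes were in at least 90% of cells (1264 at 1 TPM). Apart from what each setting changes by construction, the cause was not tested. No paired analysis was possible because each sample is 1 cell, with no animal or shared replicate number named.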

Other observations

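Interferon response genes had medians of -0.22 against CMP, 0.08 against Ly6C-GMP, 0.44 against proneu, -0.24 against preNeu and -0.62 against tpMo cells, with 0 of 12, 1 of 6, 1 of 5, 0 of 6 and 0 of 10 members higher by 1 unit, and 1, 1, 0, 2 and 3 lower. Over all genes, 30.8%, 12.7%, 20.1%, 57.6% and 41% were higher in these comparisons, and 2.16%, 1.75%, 2.77%, 3.08% and 3.98% lower. Immediate early and heat shock genes, which can be induced when tissue is taken apart, had medians from -0.20 against tpMo to 1.37 against preNeu cells, and 0.34 against CMP. Cholesterol synthesis genes had medians of 0.64 against CMP, 0.30 against Ly6C-GMP, 0.44 against proneu, 1.46 against preNeu and 1.03 against tpMo cells. The last was 0.98 without the cell with the most Ngp. Higher were 11 of 14 against preNeu, beside 57.6% of all genes, and 8 of 15 against tpMo, beside 41%. Their highest mean log2 was in Ly6C+GMP cells for 6 of 15, beside 32.4% of all genes. Basophil and mast cell genes had a median of -1.21 against Ly6C-GMP cells, with 3 of 6 lower, and eosinophil genes of -0.56, with 0 of 3 past 1 unit.

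Between Ly6C+GMP cells, the per-cell means of primary granule and ER folding genes had an r of 0.38 and a rho of 0.28, and those of primary granule and ribosome biogenesis genes -0.12 and -0.13, over cells that share a label and mostly a run. The monocyte and mitosis means had 0.09 and 0.08, so the spread along the monocyte genes and that along the mitosis genes were close to unrelated. The monocyte and DNA replication means were not set against each other. Secondary granule means had -0.40 and -0.45 with the monocyte means.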
